A study of Mus musculus with 21 samples.

Results

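The genes described here are 42 cell cycle and DNA replication genes, listed by name from their known roles, with earlier results of these data in view. They cover the G1 and S phase cyclins, the helicase that licenses replication origins, the enzymes that make deoxynucleotides, and the kinases, chromosome proteins and spindle proteins of mitosis. Of these, 37 had a probe carrying their name and 33 were bright enough to be tested, among 10587 genes tested of 16593 named on the arrays. They were read in dendritic cells that had been cultured from C57Bl6 bone marrow. The cells had 3 genotypes, crel-/-relb-/-, relb-/- and WT, and lacked c-Rel (encoded by Rel) only together with RelB, since no arrays of crel-/- cells were among the samples. Each genotype was measured unstimulated at 0 h and after 1, 8 and 24 h of stimulation through either of 2 Toll-like receptors. CpG, DNA with unmethylated CpG motifs, acts on TLR9, and the synthetic lipopeptide Pam3CSK4 on TLR2 paired with TLR1. There was 1 array for each genotype in each condition, 21 arrays in all. The labels give no age or sex of the mice, and do not say how the alleles were made, which cells other than the cultured ones lacked them, or whether arrays came from separate cultures.

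Cells enter the division cycle when D-type cyclins, made in response to growth factors and other signals, activate their kinases in G1. This releases E2F transcription factors, which drive cyclin E and the genes for DNA replication. The genes of G2 and mitosis follow later and are controlled through the DREAM and MMB complexes at CHR and CCAAT elements of their promoters. In cultures of bone marrow with GM-CSF, precursors divide while they differentiate, and mature dendritic cells are known to leave the cycle.

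The values are the authors' deposited normalized intensities, a brightness per probe on a linear scale, with no statement in the labels of how background was treated. The median of an array lay between 47.1 and 47.4, and a gene was tested when at least 3 of its 21 values exceeded 47.3, the median over all probes and arrays. A level near 47 is therefore taken here as background, close to which a fall can hardly be seen. The probe of Relb read 60.6 to 179.7 in crel-/-relb-/- cells, 65.9 to 153 in relb-/- cells and 148 to 267 in WT cells, with medians of 99.6, 109.7 and 227.5. It was lower by median in the cells labelled as lacking RelB, the ranges overlapped, and the levels stayed above background. The probe of Rel read 33.6 to 45.5 in crel-/-relb-/- cells, all at background, against 101 to 214 in relb-/- cells and 61.1 to 207 in WT cells. One array, from crel-/-relb-/- cells after 24 h of CpG, had the largest residuals, with a residual SD of 0.189 over all genes tested against 0.0966 to 0.141 on the log2 scale for the other 20, and the differences between agents at 24 h and in late change are also given without it. The p-values come from limma fits over all arrays and were adjusted over the 10587 genes by the Benjamini-Hochberg method, with a gene called at an adjusted p under 0.05. They measure how constant a difference was, for genotypes over the conditions and for times and agents over the genotypes. They do not measure its spread between animals.

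Of 14 markers of conventional dendritic cells, 11 were bright enough to be tested, among them Itgax, Zbtb46, Irf4, Batf3 and the MHC class II genes, while Flt3, Xcr1 and Cd209a stayed at background on all arrays. Of 8 measured markers of dividing myeloid progenitors, 4 (Cd34, Mpo, Ctsg and Ms4a3) were not bright enough to be tested. The summed intensity of the 8 was 390.3 to 410.0 at 0 h, 394 to 412 at 1 h, 341 to 415 at 8 h and 353 to 422 at 24 h. All but Gfi1 (median 76.2) had medians near background, so the sum could hardly show a fall. Of the 4 that were tested, Prtn3, a granule protease, was lower, with log2 differences of -0.41 at 8 h and -0.35 at 24 h. It read 40.5 to 71.1, near background. Gfi1, a transcription factor, had -0.31 at 24 h, while Elane and Myb were called at neither time. The cell cycle genes fell over the same times. The part of progenitors in the falls of those genes was not tested.

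The brightness of the members differed widely. Of the 33 tested, 25 lay above the median of all values on all 21 arrays. The other 8 were dimmer, namely Ccne1 (20 arrays above it), Ccne2 (18), Mcm7 (7), Rrm2 (20), Bub1b (17), Cdc20 (20), Ube2c (4) and Kif11 (10). For these 8, a fall to background has a floor. Ccna2 and Ccnb2, the cyclins of S and G2 phase and of mitosis, Bub1, a kinase of the spindle checkpoint, and Kif20a, a kinesin of cytokinesis, lay at or below the median on all 21 arrays. Ccna2 ranged from 33.7 to 46.9, Ccnb2 from 35.9 to 42.8, Bub1 from 33.9 to 44.4 and Kif20a from 32.8 to 42.1. These probes gave no level that could be told from background. Mki67, Ccnb1, Cdk4, Aurkb and Racgap1 were not analysed here.

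Promoter sequences of 30 of the 37 measured members, from RefSeq on the mouse build GRCm38.p6, were searched on both strands for 3 elements in a window of 300 bases, from 250 before to 50 after the annotated start. The elements were the CHR (TTTGAA), the CCAAT box (CCAAT) and the E2F site (TTTCCCGC, TTTGGCGC, TTTCGCGC or TTTGCCGC), whose matches on opposite strands can overlap. A CHR was present for 50% of the members with a window against 20.2% of all 27025 genes, a CCAAT box for 80.0% against 41.1%, and an E2F site for 20.0% against 2.6%. The CHR and the E2F site were divided by role. The CCAAT box was less so, present for 88.2% of mitotic members, 83.3% of licensing members and 60.0% of those for the clamp and nucleotide synthesis. Of 17 mitotic members, 14 held a CHR together with a CCAAT box and 1 (Cdk1) held an E2F site. Of 6 members that license replication, 5 (Mcm3, Mcm5, Mcm6, Mcm7 and Cdc6) held an E2F site and 1 (Mcm2) a CHR. Of the 5 members for the replication clamp and nucleotide synthesis, 0 held either. Windows of 4 members are shown, the first of 2 for Prc1, 3 of mitotic genes whose levels fell with stimulation and 1 of a licensing gene that differed between the agents, with the matched elements in capitals, read 5′ to 3′ on the strand of the gene. In Mcm5, 2 E2F sites on opposite strands overlap and form 1 run of capitals.
Cdca3 (+ strand, chr6:124829926-124830225): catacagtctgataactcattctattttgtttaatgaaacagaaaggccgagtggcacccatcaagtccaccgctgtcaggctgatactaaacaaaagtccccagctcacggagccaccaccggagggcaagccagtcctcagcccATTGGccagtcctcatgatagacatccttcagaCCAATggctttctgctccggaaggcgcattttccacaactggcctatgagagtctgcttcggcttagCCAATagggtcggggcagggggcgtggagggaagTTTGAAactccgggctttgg
Cenpa (+ strand, chr5:30666636-30666935): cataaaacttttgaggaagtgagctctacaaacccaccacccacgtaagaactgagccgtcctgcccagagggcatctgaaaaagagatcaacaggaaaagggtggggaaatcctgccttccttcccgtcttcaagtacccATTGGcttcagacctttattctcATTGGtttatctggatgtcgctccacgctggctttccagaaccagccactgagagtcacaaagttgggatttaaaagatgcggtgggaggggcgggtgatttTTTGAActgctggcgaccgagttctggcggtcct
Prc1 (+ strand, chr7:80294201-80294500): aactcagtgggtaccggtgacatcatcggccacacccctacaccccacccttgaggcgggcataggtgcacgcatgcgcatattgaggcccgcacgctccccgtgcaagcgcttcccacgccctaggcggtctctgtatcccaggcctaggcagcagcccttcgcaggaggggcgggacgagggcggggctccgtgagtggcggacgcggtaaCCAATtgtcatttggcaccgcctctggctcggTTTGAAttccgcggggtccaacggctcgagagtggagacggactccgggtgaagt
Mcm5 (+ strand, chr8:75109259-75109558): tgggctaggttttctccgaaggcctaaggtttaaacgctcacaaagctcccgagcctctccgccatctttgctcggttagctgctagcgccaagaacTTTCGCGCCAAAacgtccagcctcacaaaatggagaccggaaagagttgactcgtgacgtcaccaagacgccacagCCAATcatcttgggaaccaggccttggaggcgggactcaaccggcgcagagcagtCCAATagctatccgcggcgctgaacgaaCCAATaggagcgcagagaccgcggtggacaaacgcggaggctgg
A match describes these letters and does not show that a factor binds there.

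The first comparison asks what stimulation did to these genes, with 8 h and 24 h set against 0 h over both agents and all genotypes. Most of the larger falls were those of mitotic genes, together with Ccnd3 at 8 h and Ccnd2 at 24 h, and some genes of replication fell too. By median log2 difference at 8 h, the genes of chromosomes and the centromere stood at -1.17, those of the spindle at -0.86 and those of replication licensing at -0.36. At 8 h, 22 of 33 members were lower and 0 higher, where 30.9% of all genes tested were called in either direction and 15.9% lower. At 24 h, 23 were lower and 0 higher, where 31.9% were called in either direction and 15.0% lower. The 23 include Ube2c, which passed the brightness filter only through arrays at 0 and 1 h. The median log2 difference of the 33 members was -0.59 at 8 h and -0.48 at 24 h, against 0.0034 and 0.0046 for all genes. Among the 25 members above the median on every array, 17 were lower at 8 h, where 20.4% of all such genes were, and 19 at 24 h, where 19.2% were. At 1 h, limma called 0 of 33 members, where 1.11% of all genes were called, and 5 members had an unadjusted p under 0.05, where 9.45% of all genes did. On bulk RNA, fewer dividing cells and less of these RNAs per dividing cell cannot be told apart. The comparisons of 8 h and of 24 h share the 3 arrays at 0 h.

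The level of the whole group on an array, as the mean over 33 genes of the log2 intensity minus the gene's mean, separated the times. At 0 h it was 0.45, 0.30 and 0.31 in crel-/-relb-/-, relb-/- and WT cells. With CpG it was 0.44, 0.15 and 0.21 at 1 h, -0.10, -0.16 and -0.11 at 8 h, and -0.0026, -0.021 and 0.043 at 24 h in the same order. With Pam3CSK4 it was 0.34, 0.22 and 0.19 at 1 h, -0.30, -0.35 and -0.26 at 8 h, and -0.45, -0.48 and -0.41 at 24 h. All 12 arrays at 8 and 24 h lay below all 9 arrays at 0 and 1 h, and the lowest 3 were those at 24 h with Pam3CSK4. Some of the 33 genes passed the brightness filter on few arrays, so these levels are a description only.

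**Figure D1:**
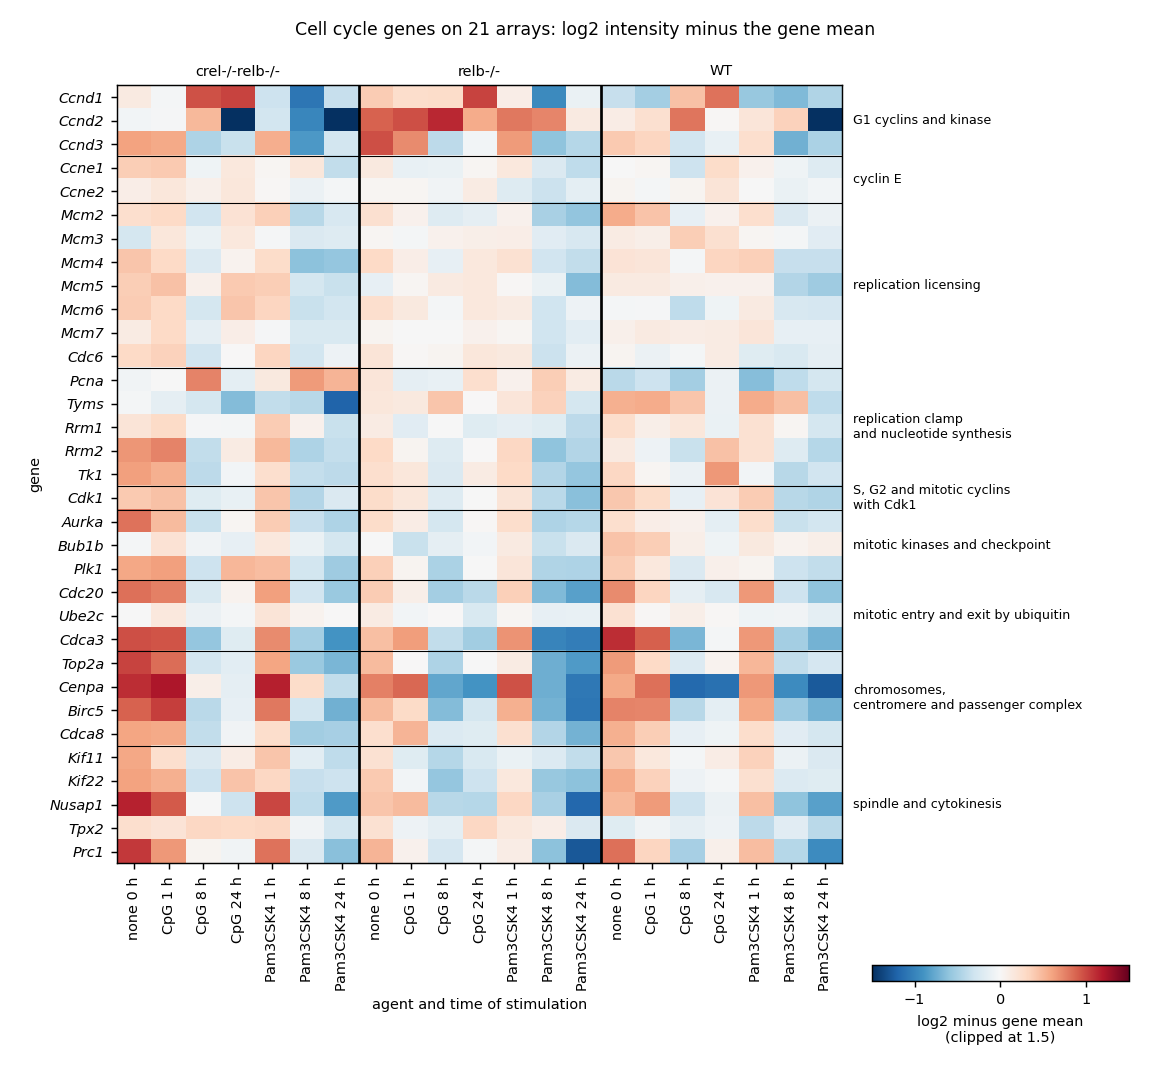
Colour map of 33 cell cycle genes (rows, grouped by role) on 21 arrays (columns, 7 conditions for each of crel-/-relb-/-, relb-/- and WT). Colour gives the log2 intensity minus the mean of that gene over all arrays, clipped at 1.5 in both directions. Mitotic genes such as Cdca3, Birc5 and Prc1 are red at 0 and 1 h and white to blue at 8 and 24 h, and bluer with Pam3CSK4 than with CpG at 24 h. Pcna, Ccnd1 and Ccnd2 follow other patterns, while Ccnd3 also falls at 8 and 24 h.

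Among the genes of chromosomes, centromeres and the chromosomal passenger complex, all 4 tested were lower at both times. Cenpa, the histone H3 variant that marks centromeres, read 3368, 2620.5 and 2317 at 0 h in crel-/-relb-/-, relb-/- and WT cells, 2446 to 3598 (median 2924) over the 6 arrays at 1 h, 693 to 1883 (median 923) at 8 h and 653 to 1419.6 (median 789) at 24 h. No array at 8 or 24 h reached the lowest of the arrays at 0 or 1 h. The log2 difference was -1.36 ± 0.12 (SE), adjusted p = 2.50e-08 at 8 h and -1.62 ± 0.12 (SE), adjusted p = 1.22e-09 at 24 h, with the fall seen in 6 of 6 pairs of array and unstimulated array. Birc5, which encodes survivin, a passenger protein that is also an inhibitor of apoptosis, had differences of -1.20 at 8 h and -1.21 at 24 h. Its 2 other probes fell as well, by 1.04 and 1.13 on the log2 scale at 8 h. Top2a, the topoisomerase that untangles sister chromatids, had -1.14 and -1.02, and Cdca8, which encodes the passenger protein borealin, -0.77 and -0.76.

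Of 3 genes of ubiquitin-driven mitotic progression, Cdca3 and Cdc20 fell about as far. Cdca3, a trigger of mitotic entry, read 191, 135 and 211 at 0 h in crel-/-relb-/-, relb-/- and WT cells, 152 to 188 (median 158) over the 6 arrays at 1 h, 49.3 to 75.7 (median 67.3) at 8 h and 47.8 to 95.8 (median 64.0) at 24 h. Here too the late arrays did not overlap the early ones. The log2 difference was -1.45 ± 0.12 (SE), adjusted p = 4.24e-09 at 8 h and -1.41 ± 0.12 (SE), adjusted p = 4.81e-09 at 24 h, and its dimmer second probe had -0.76 and -0.55. Cdc20, the activator of the anaphase-promoting complex, read 142, 105 and 131 at 0 h in crel-/-relb-/-, relb-/- and WT cells, 85.0 to 136 (median 112) over the 6 arrays at 1 h, 50.6 to 73.3 (median 65.3) at 8 h and 45.7 to 83.3 (median 57.6) at 24 h. Its differences were -1.0 and -1.07, and those of 3 dimmer probes ran between -0.63 and -0.24, so that with the mean of its probes the values were -0.58 and -0.59. Ube2c, the ubiquitin-conjugating enzyme of that complex, was near background on all arrays (37.8 to 51.9) and had -0.20 at 24 h. Its 4 arrays above the median were all at 0 or 1 h. It was thus tested only through early arrays, and no fall is read from its call.

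Of the 5 tested genes of the spindle and of cytokinesis, 4 were lower at 8 h and the same count at 24 h. Nusap1, a microtubule-binding protein of the spindle, read 376, 224 and 236 at 0 h in crel-/-relb-/-, relb-/- and WT cells, 209 to 338 (median 249) over the 6 arrays at 1 h, 111 to 167 (median 128) at 8 h and 74.6 to 159 (median 111) at 24 h. Its log2 difference was -1.05 ± 0.12 (SE), adjusted p = 5.38e-07 at 8 h and -1.30 ± 0.12 (SE), adjusted p = 2.09e-08 at 24 h, with no overlap between late and early arrays. Prc1, which bundles the microtubules of the central spindle, read 448, 308 and 383 at 0 h in crel-/-relb-/-, relb-/- and WT cells, 226 to 378 (median 284) over the 6 arrays at 1 h, 140.4 to 221 (median 171) at 8 h and 89.0 to 226 (median 174) at 24 h, so its levels at 24 h spread widely and its highest at 24 h was just above its lowest at 1 h. The differences of Prc1 were -1.13 and -1.28, and those of the chromosome-binding kinesin Kif22 -0.86 and -0.69. Kif11, the kinesin that separates the spindle poles, was lower by less (-0.59 and -0.57), and the spindle assembly factor Tpx2 did not pass the test at either time (-0.12 and -0.16).

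Among mitotic kinases and Cdk1, the falls were smaller. Cdk1, the kinase that drives entry into mitosis, read 159, 146 and 160.0 at 0 h in crel-/-relb-/-, relb-/- and WT cells, 136 to 164 (median 152) over the 6 arrays at 1 h, 89.0 to 110.4 (median 98.2) at 8 h and 78.2 to 139 (median 108) at 24 h. Of the late arrays, only that of WT cells with CpG at 24 h overlapped the early ones, and the differences of Cdk1 were -0.65 at 8 h and -0.56 at 24 h. Plk1 and Aurka, kinases of centrosome maturation and spindle assembly, had -0.78 and -0.57 for Plk1, and -0.72 and -0.65 for Aurka. Bub1b, which encodes the checkpoint protein BubR1, was near background and did not pass the test (-0.21 and -0.23).

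Of the 7 genes that license replication origins, 5 were lower at 8 h and 3 at 24 h. Mcm2 to Mcm7 encode the 6 subunits of the replicative helicase, and Cdc6 helps to load it. At 8 h, Mcm2 (-0.63), Mcm4 (-0.57), Mcm6 (-0.46), Cdc6 (-0.36) and the dim Mcm7 (-0.19) were lower. At 24 h, Mcm2 (-0.48), Mcm4 (-0.43) and Mcm5 (-0.28) were. Mcm3 had 0.026 and 0.02 and passed at neither time. Mcm4 read 806, 739.5 and 693 at 0 h in crel-/-relb-/-, relb-/- and WT cells, 648 to 773 (median 719.5) over the 6 arrays at 1 h, 395 to 592 (median 507) at 8 h and 405 to 755 (median 549) at 24 h, so the arrays at 24 h overlapped those at 0 h. Mcm6 read 386, 352 and 289.8 at 0 h in crel-/-relb-/-, relb-/- and WT cells, 292 to 369.9 (median 326) over the 6 arrays at 1 h, 227 to 289.8 (median 243) at 8 h and 244 to 396 (median 282) at 24 h. It was higher at 24 h than at 8 h by 0.24 ± 0.08 (SE), adjusted p = 0.0396, although the times overlapped and the call was lost in 7 of 21 fits with 1 array left out. The call for Mcm5 at 24 h was lost in 9.

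In nucleotide synthesis, averaged over agents and genotypes, Rrm2 and Tk1 fell first and Rrm1 and Tyms later. Rrm2, the small subunit of ribonucleotide reductase, had -0.72 and -0.47, and Tk1, the thymidine kinase of S phase, -0.71 and -0.47. The fall was not seen in WT cells with CpG at 24 h. There Tk1 read 112.9, against 89.0 at 0 h, and Rrm2 93.2, against 75.2. All other arrays at 8 and 24 h lay below the unstimulated array of their genotype for both genes. A second, dimmer probe of Rrm2 did not pass the test (-0.25 and -0.14), and the mean of both probes gave -0.30 at 24 h. Rrm1, the large subunit of the reductase, read 156, 148 and 164 at 0 h in crel-/-relb-/-, relb-/- and WT cells, 122 to 178 (median 152) over the 6 arrays at 1 h, 120.2 to 154 (median 138) at 8 h and 105 to 134 (median 117) at 24 h. It had -0.18 at 8 h, which did not pass, -0.41 at 24 h, and -0.22 ± 0.07 (SE), adjusted p = 0.0324 for 24 h against 8 h, a call lost in 8 of 21 fits with 1 array left out. Tyms, the thymidylate synthase, read 456, 525 and 675 at 0 h in crel-/-relb-/-, relb-/- and WT cells, 360.5 to 688 (median 523) over the 6 arrays at 1 h, 349.9 to 639 (median 609) at 8 h and 203 to 468 (median 375) at 24 h. Its differences were -0.062 at 8 h, not called, -0.65 at 24 h, and -0.59 ± 0.09 (SE), adjusted p = 4.36e-05 for 24 h against 8 h. Of its 4 other probes, all near background, 1 was lower at 24 h (-0.54), 1 was higher (0.19) and the other two were not called, and the mean of all its probes gave -0.22 at 24 h and -0.23 for 24 h against 8 h. Pcna, the sliding clamp of DNA polymerases, was not called at any time, with 0.22 at 8 h and 0.16 at 24 h.

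The 3 cyclins of G1 each behaved in their own way. Ccnd3 read 1113, 1423 and 958 at 0 h in crel-/-relb-/-, relb-/- and WT cells, 868 to 1190.5 (median 1073) over the 6 arrays at 1 h, 402 to 599 (median 505) at 8 h and 526 to 709 (median 593) at 24 h, and none of the 12 late arrays reached the lowest early one. Its log2 difference was -1.21 ± 0.11 (SE), adjusted p = 1.54e-08 at 8 h and -0.93 ± 0.11 (SE), adjusted p = 5.81e-07 at 24 h, and it was higher at 24 h than at 8 h by 0.28 ± 0.09 (SE), adjusted p = 0.0244. Of its 2 other probes, 1 fell by 0.53 on the log2 scale at 8 h and 1 lay at background (-0.023), so that the mean of the probes gave -0.59 at 8 h, -0.43 at 24 h and 0.15, no longer called, for 24 h against 8 h. Ccnd2 read 2109, 4012 and 2347 at 0 h in crel-/-relb-/-, relb-/- and WT cells, 1795 to 4257 (median 2509) over the 6 arrays at 1 h, 1100.2 to 4770.0 (median 3319) at 8 h and 355 to 3180.5 (median 1456) at 24 h. It had 0.10 at 8 h, which did not pass, and -1.21 ± 0.26 (SE), adjusted p = 9.53e-04 at 24 h, and for 24 h against 8 h -1.31 ± 0.21 (SE), adjusted p = 9.58e-05. Ccnd1 read 572, 678 and 409 at 0 h in crel-/-relb-/-, relb-/- and WT cells, 350.4 to 626 (median 465) over the 6 arrays at 1 h, 245 to 1009 (median 480.1) at 8 h and 380.4 to 1048 (median 699.6) at 24 h, and was called at neither time over both agents (-0.23 and 0.27), although it was higher at 24 h than at 8 h by 0.50 ± 0.13 (SE), adjusted p = 0.00815. Of the 2 genes of cyclin E, which acts with Cdk2 at the start of S phase, Ccne1 was lower at 8 h (-0.27) and Ccne2 at neither time, both near background. In all, 3 members were higher and 3 lower at 24 h against 8 h, where 22.2% of all genes were called in either direction, and the total was 3 without the crel-/-relb-/- array with Pam3CSK4 at 8 h.

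**Figure D2:**
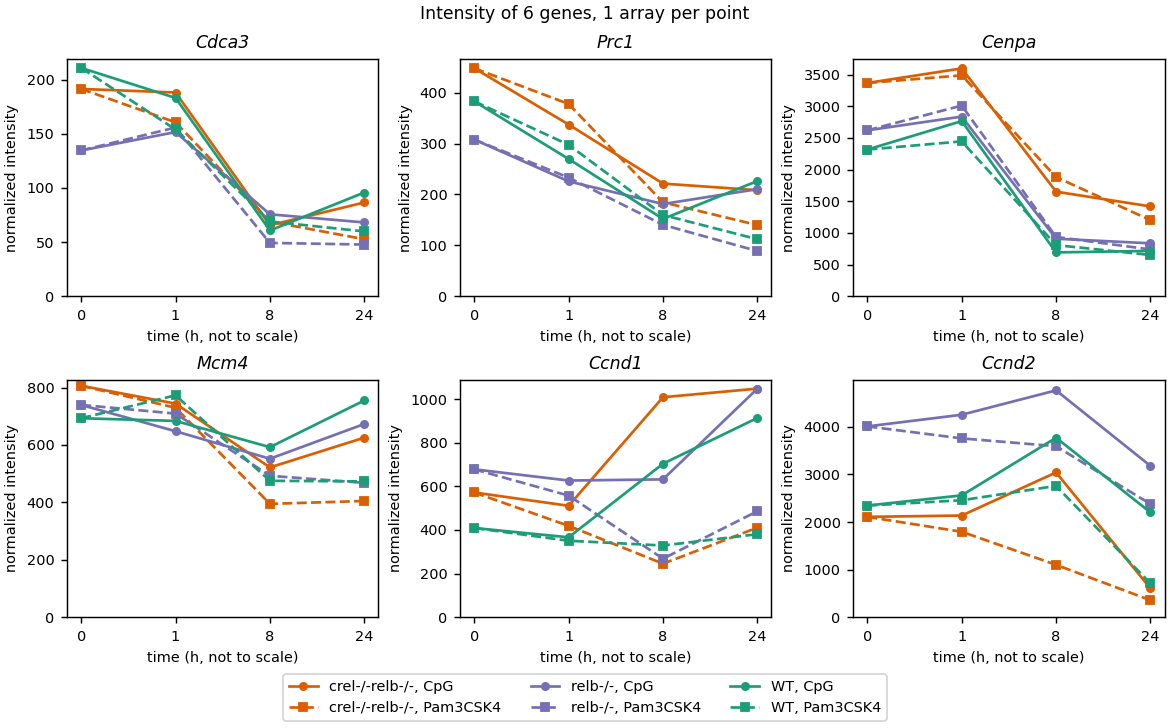
Normalized intensity (linear axis from 0) of 6 genes at 0, 1, 8 and 24 h, with 1 array per point, colours for genotypes, solid lines for CpG and dashed lines for Pam3CSK4, and the unstimulated array shared by both lines. Cdca3, Prc1 and Cenpa drop by 8 h in every line. Ccnd1 rises above its unstimulated level only in the solid lines, and Ccnd2 ends lowest in crel-/-relb-/- cells.

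Lists of other genes of the same pathways were counted in the same way. Of 26 other replication and S phase genes tested, 12 were lower and 1 higher at 8 h, and 14 lower and 2 higher at 24 h, with median log2 differences of -0.23 and -0.26. Those lower included Chaf1b, a subunit of the chromatin assembly factor (-1.04 at 8 h), and Dbf4, the activator of the origin-firing kinase Cdc7 (-0.84 at 24 h), while Cdc7 itself was higher (0.71 at 8 h). Of 31 other G2 and mitosis genes, 16 were lower at each time, with 1 higher at 8 h and 2 at 24 h. The largest falls among them were those of Anln, the cytokinesis protein anillin (-1.41 at 8 h and -1.27 at 24 h), and Lmnb1, lamin B1 (-1.33 and -1.40). Of 14 genes of the S phase checkpoint and repair, 5 and 4 were lower and 0 higher at 8 and 24 h, or 35.7% and 28.6% called, against 30.9% and 31.9% of all genes called in either direction, with Blm, a helicase, at -0.91 and -0.92.

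Genes that restrain the cycle were called in both directions, at shares near those of all genes. Of 18 CDK inhibitors, pocket proteins and antiproliferative genes, 4 were higher and 3 lower at 8 h, and 3 higher and 3 lower at 24 h, or 38.9% and 33.3% called, where 30.9% and 31.9% of all genes were. Cdkn1c, which encodes the CDK inhibitor p57, was higher by 3.03 at 24 h (adjusted p = 3.17e-11). Gadd45b, a stress-response gene induced by NF-kB, was higher by 1.85 at 1 h, 1.85 at 8 h and 1.35 at 24 h, and its relative Gadd45a was lower at 8 h, with a log2 difference of -1.29. Among 13 genes of E2F, Myc and other G1 kinases, 4 were lower and 2 higher at each time, or 46.2% called. Mycl, a Myc paralog expressed in dendritic cells, had -1.43 and -1.58, E2f2 had -0.98 and -0.71, and Cdk2 -0.51 and -0.55.

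Markers of other cells moved over the same times. The summed intensity of 11 measured neutrophil markers, of which Camp was not bright enough to be tested, was 12040 to 17430 with CpG and 25600 to 27520 with Pam3CSK4 at 24 h, against 1602 to 3146 at 0 h, with the highest intensities those of Lcn2 and S100a8, genes that activated myeloid cells also express. The list did not move together, with 4 of its 10 tested genes higher and 4 lower at 24 h, and Cxcr2, a chemokine receptor, had -2.01, S100a9 -1.48 and Ngp -0.34. The sum of 9 measured macrophage and monocyte markers, with Ccr2 not tested, was 7218 to 9049 with CpG and 8207 to 10940 with Pam3CSK4 at 24 h, against 3206 to 4260 at 0 h, with the highest intensities those of Adgre1 and Cd14. Of the 8 tested, 3 were higher and 3 lower at 8 h, and 4 higher and 1 lower at 24 h. The lower ones were Mrc1, the mannose receptor, with -2.14 at 8 h and -2.54 at 24 h, and at 8 h Mertk (-0.82) and Fcgr1 (-0.54). The sum of 14 dendritic cell markers was 14730 to 18350 at 24 h, against 18410 to 23450 at 0 h. Most of it came from Cd74, H2-Ab1 and H2-Aa, genes of MHC class II presentation. Of the 11 markers tested, 2 were higher and 6 lower at 24 h. Prg2, a granule protein of eosinophils, was lower at 24 h, with a log2 difference of -3.03, and so was Ear6, with -1.49. The part of these cells in the falls of the cell cycle genes was not tested.

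The second comparison asks whether the ligands differed. Cell cycle genes were higher with CpG than with Pam3CSK4, most clearly at 24 h. Over all times, 11 of 33 members were higher and 0 lower with CpG, where 2.26% of all genes tested were called in either direction and 0.916% higher. These were Ccnd1, Mcm5, Prc1, Nusap1, Cdca3, Mcm4, Cdca8, Birc5, Mcm3, Mcm7 and Ccne2, and the median over the 33 members was 0.19, against 0.0022 for all genes. Among the 25 members above the median on every array, 9 were higher, where 1.16% of all such genes were. Ccnd1 had the largest difference, 0.96 ± 0.11 (SE), adjusted p = 1.73e-05, and was higher with CpG in 9 of 9 pairs. Mcm5 followed with 0.37 ± 0.07 (SE), adjusted p = 0.00454 and 9 of 9 pairs, and Prc1 with 0.34 ± 0.07 (SE), adjusted p = 0.0181 but only 5 of 9 pairs. With 1 array left out the count was 5 to 11. It was 5 without the crel-/-relb-/- array with CpG at 1 h, with Pam3CSK4 at 8 h or with Pam3CSK4 at 24 h, and without the WT array with CpG at 8 h. It was 6 or 7 without the crel-/-relb-/- array with Pam3CSK4 at 1 h, the relb-/- arrays with CpG at 1 h or Pam3CSK4 at 1 or 8 h, or the WT arrays with CpG at 1 or 24 h or Pam3CSK4 at 1 or 8 h. Among the calls between the agents over all times, those of Mcm3, Cdca3, Birc5 and Cdca8 were lost most often, in 19, 16, 14 and 14 of the 21 such fits.

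The agents were then compared at each time, a choice made after seeing the data. At 1 h, limma called 0 members, where 0.567% of all genes were called, and 0 members had an unadjusted p under 0.05, where 5.67% of all genes did. At 8 h it called Ccnd1, where 0.104% of all genes were called. At 24 h it called 16 members higher with CpG and 0 lower, where 2.47% of all genes were called in either direction and 1.32% higher, and the median over the 33 members was 0.40, against 0.0067 for all genes. With the crel-/-relb-/- array of CpG at 24 h left out, 14 were higher, and with that of Pam3CSK4 at 24 h left out, 7 were.

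At 24 h Ccnd1 read 1048, 1048 and 914 with CpG in crel-/-relb-/-, relb-/- and WT cells, against 410.4, 486 and 380.4 with Pam3CSK4 in the same order. The agents did not overlap, and the difference was 1.24 ± 0.18 (SE), adjusted p = 6.48e-04. At 8 h it was 1.46 ± 0.18 (SE), adjusted p = 6.77e-04. All 3 probes of Ccnd1 were higher with CpG over all times (0.96, 0.88 and 0.50). Prc1 read 208, 210.5 and 226 with CpG, against 140.0, 89.0 and 112 with Pam3CSK4, a difference of 0.94 ± 0.13 (SE), adjusted p = 2.35e-04, and again no array overlapped. For Mcm5 the levels were 312, 266 and 248 with CpG, against 188, 151 and 164 with Pam3CSK4, a difference of 0.71 ± 0.12 (SE), adjusted p = 0.00174. Nusap1 (0.67), Tk1 (0.67), Birc5 (0.66), Plk1 (0.64), Cdca3 (0.64), Mcm4 (0.61), Rrm2 (0.60), Top2a (0.56), Tpx2 (0.47), Ccne1 (0.47), Cdc20 (0.46), Cdk1 (0.46) and Mcm3 (0.36) were higher as well, so the 16 spread over replication, nucleotide synthesis and mitosis. Ccnd2 had a difference of 0.94 that did not pass the test (adjusted p = 0.103) and passed without the crel-/-relb-/- CpG array (1.33, adjusted p = 0.0248). Pcna (-0.12), Ube2c (0.0044) and Bub1b (0.057) showed the smallest differences.

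Against the shared arrays at 0 h, the agents gave these values side by side. With CpG at 24 h, 16 members were lower and 1, Ccnd1, was higher by 0.89 ± 0.18 (SE), adjusted p = 9.60e-04, where 12.3% of all genes were called lower. With Pam3CSK4 at 24 h, 26 were lower and 0 higher, where 13.4% of all genes were called lower. The median over the 33 members was -0.30 with CpG and -0.77 with Pam3CSK4. Replication licensing genes counted 1 of 7 lower with CpG and 5 of 7 with Pam3CSK4, while the 4 genes of chromosomes and the centromere were lower with both. At 8 h, 20 members were lower with CpG, where 13.2% of all genes were, and 24 with Pam3CSK4, where 13.6% were. Ccnd1 at 8 h had -0.96 with Pam3CSK4, which was called, and 0.50 with CpG, which was not.

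Whether the agents' difference itself changed with time was tested directly. From 1 h to 24 h it grew for 3 members, Prc1 (by 1.06 ± 0.18 (SE), adjusted p = 0.00906), Mcm4 (0.70 ± 0.15 (SE), adjusted p = 0.0397) and Cdc20 (0.61 ± 0.14 (SE), adjusted p = 0.0452), where 0.538% of all genes tested changed in either direction. When crel-/-relb-/- cells given CpG for 24 h were left out, that for Cdc20 was 0.56 and was not called (adjusted p = 0.0854). Between 8 h and 24 h, limma called 0 members and 0 of all genes, and 13 members had an unadjusted p under 0.05, where 7.97% of all genes did. With 1 array left out, 1 to 5 members grew. Of the other lists at 24 h, 8 of 26 other replication genes and 5 of 31 other G2 and mitosis genes were higher with CpG and 0 lower. Among all genes, 1.32% were higher and 2.47% were called in either direction. Of the 18 CDK inhibitors and related genes, 0 were called at 24 h. In the comparison over all times, 2 genes of that last list were called, where 2.26% of all genes were. These were Gadd45g, higher with CpG (0.55), and Gadd45a, lower (-0.46). The neutrophil marker sums given above for 24 h also differed between the agents without overlap, lower with CpG, although of the 10 tested genes 1 was higher and 3 lower. Of the 8 macrophage and monocyte markers, 3 were higher and 1 lower with CpG at 24 h. Their part in the result was not tested.

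**Figure D3:**
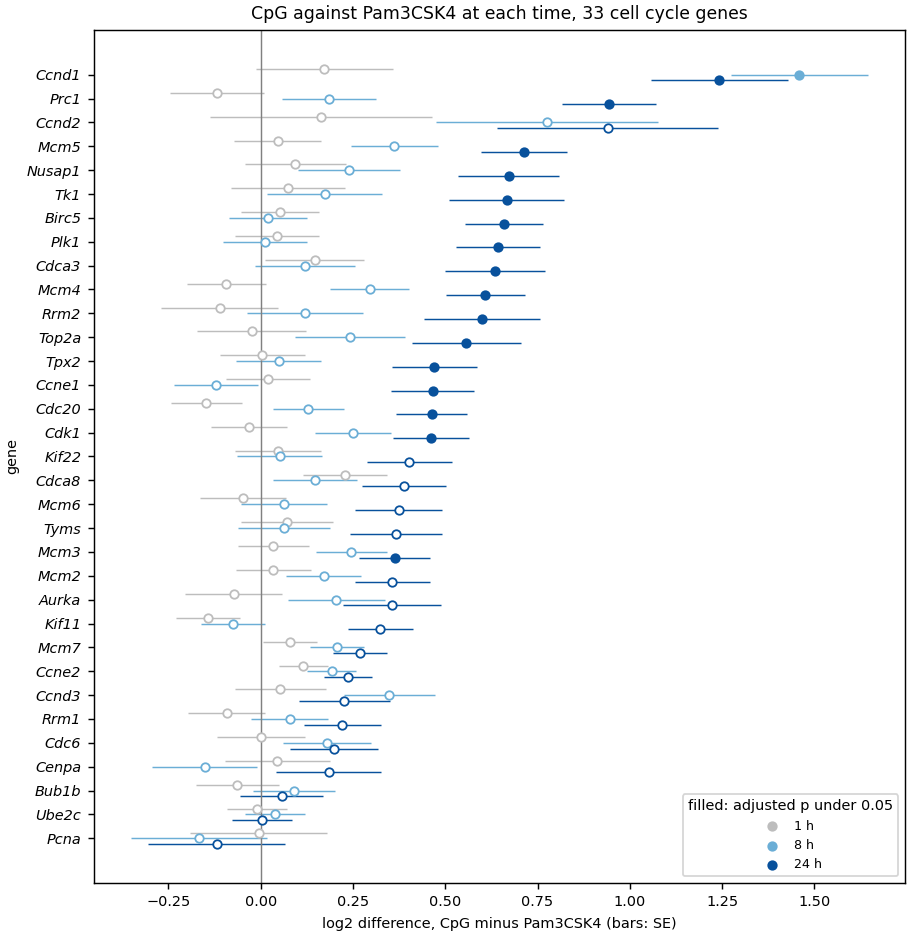
Log2 difference of CpG minus Pam3CSK4 (horizontal axis) for 33 cell cycle genes (rows) at 1, 8 and 24 h, each point from the additive limma model over 3 pairs of arrays, bars giving the SE and filled points an adjusted p under 0.05. The points of 24 h lie to the right of 0 for 32 of 33 genes and 16 are filled, while at 8 h only Ccnd1 is filled and at 1 h none.

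The third comparison asks what loss of RelB, alone or with c-Rel, did to these genes over all 7 conditions. The genotypes differed in some members and in both directions, and the ranges over 7 conditions overlapped for every gene described here. In crel-/-relb-/- against WT cells, 4 members were higher and 2 lower, where 15.4% of all genes were called in either direction. In relb-/- against WT cells, 3 were higher and 7 lower, where 11.7% were called. In crel-/-relb-/- against relb-/- cells, 12 were higher and 2 lower, where 19.8% of all genes were called, 10.5% higher and 9.28% lower. As shares of the 33 members the calls were 18.2%, 30.3% and 42.4%, so that the first stood near its background and the other two above it. The 3 pairs share arrays.

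Ccnd2 differed between all 3 genotypes. It read 355 to 3043 (median 1795) in crel-/-relb-/- cells, 2378 to 4770.0 (median 3759) in relb-/- cells and 709 to 3773 (median 2458) in WT cells. Its difference was -0.77 ± 0.20 (SE), adjusted p = 0.0104 for crel-/-relb-/- against WT, 0.73 ± 0.20 (SE), adjusted p = 0.0184 for relb-/- against WT, and -1.5 ± 0.20 (SE), adjusted p = 1.36e-05 for crel-/-relb-/- against relb-/-, each in 7 of 7 conditions. Thus relb-/- cells had the highest level and crel-/-relb-/- cells the lowest in every condition. With CpG at 24 h it read 604, 3180.5 and 2203 in crel-/-relb-/-, relb-/- and WT cells, and with Pam3CSK4 at 24 h 355, 2378 and 709. The difference in its late change between crel-/-relb-/- and WT cells, -0.84 ± 0.34 (SE), adjusted p = 0.415, did not pass the test. Ccnd3 and the brightest probe of Ccnd1 were not called between genotypes over all conditions. Another probe of Ccnd1 was higher in relb-/- than in WT cells by 0.49 (adjusted p = 0.00632, limma). In the same comparison the brightest probe had 0.33 (adjusted p = 0.0911, limma) and the dimmest 0.10 (adjusted p = 0.686). All 3 probes thus had the same sign, and they differed in size and in whether they passed the test. By the brightest probes, at 0 and 1 h both genes were higher in relb-/- than in WT cells, Ccnd1 by 0.72 ± 0.15 (SE), adjusted p = 0.00621 and Ccnd3 by 0.45 ± 0.10 (SE), adjusted p = 0.0141, a split by time made after seeing the data in which 2.21% of all genes were called higher. With 1 array left out, 0 to 3 members were higher in that comparison.

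In crel-/-relb-/- cells Cenpa was higher and Tyms lower than in WT cells. Cenpa read 1202 to 3598 (median 1883) in crel-/-relb-/- cells, 740.1 to 3011 (median 937) in relb-/- cells and 653 to 2766 (median 809) in WT cells, with a difference of 0.82 ± 0.09 (SE), adjusted p = 2.38e-06 in 7 of 7 conditions against WT and 0.61 ± 0.09 (SE), adjusted p = 7.86e-05 in 7 of 7 against relb-/-. The ranges over conditions overlapped, but the order held in each condition. Tyms read 203 to 456 (median 360.5) in crel-/-relb-/- cells, 389.6 to 623 (median 525) in relb-/- cells and 359.8 to 688 (median 639) in WT cells, with -0.73 ± 0.08 (SE), adjusted p = 2.08e-06 against WT and -0.58 ± 0.08 (SE), adjusted p = 3.04e-05 against relb-/-, both in 7 of 7 conditions. Only its brightest probe showed this, and the mean of its probes gave -0.17 and -0.16.

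Pcna and Tpx2 were higher in both mutants than in WT cells. Pcna read 169.8 to 315 (median 209) in crel-/-relb-/- cells, 172 to 244 (median 204) in relb-/- cells and 121 to 177 (median 144) in WT cells, with 0.63 ± 0.12 (SE), adjusted p = 0.00101 for crel-/-relb-/- and 0.47 ± 0.12 (SE), adjusted p = 0.0133 for relb-/- cells. Tpx2 read 60.3 to 90.3 (median 86.8) in crel-/-relb-/- cells, 62.7 to 89.8 (median 77.7) in relb-/- cells and 54.8 to 70.2 (median 64.8) in WT cells, with 0.35 for crel-/-relb-/- and 0.25 for relb-/- cells. The mutants did not differ from each other in either gene beyond the threshold. Prc1 was also higher in crel-/-relb-/- cells than in the WT (0.26 ± 0.08 (SE), adjusted p = 0.0356), in 6 of 7 conditions, a call lost in 11 of 21 fits with 1 array left out.

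Several mitotic members were lower in relb-/- than in WT cells. Against WT cells, relb-/- cells had lower Kif22 (-0.32 ± 0.08 (SE), adjusted p = 0.00805), Top2a (-0.30 ± 0.10 (SE), adjusted p = 0.0475), Bub1b (-0.29 ± 0.07 (SE), adjusted p = 0.0126), Cdc20 (-0.28), Kif11 (-0.28), Mcm2 (-0.27) and Birc5 (-0.24), of which Bub1b and Kif11 were near background. Kif22 read 66.1 to 128 (median 104) in crel-/-relb-/- cells, 54.6 to 110.1 (median 67.9) in relb-/- cells and 72.9 to 123 (median 82.5) in WT cells. For Top2a the levels were 58.1 to 188 (median 83.8) in crel-/-relb-/- cells, 51.9 to 129.6 (median 92.8) in relb-/- cells and 72.3 to 145 (median 96.9) in WT cells. Its median was lowest in crel-/-relb-/- cells, while condition by condition relb-/- cells were below WT cells in 7 of 7. Bub1b read 44.7 to 62.5 (median 51.6) in crel-/-relb-/- cells, 42.5 to 59.1 (median 48.9) in relb-/- cells and 51.5 to 72.0 (median 57.1) in WT cells. The ranges of all 3 genes overlapped between the genotypes. With 1 array left out, 6 to 11 members were called, and 6 without the relb-/- array at 24 h with Pam3CSK4. The calls for Top2a, Birc5 and Tpx2 in this comparison were lost in 14, 9 and 8 of the 21 such fits, and for Cdc20 the mean of its probes gave -0.13. The list of other G2 and mitosis genes was called in both directions between relb-/- and WT cells. Gtse1 (0.52) and Pttg1 (0.29) were higher in relb-/- cells, and Kif2c (-0.29), Kif15 (-0.24) and Kif18a (-0.20) were among those lower.

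Against relb-/- cells, crel-/-relb-/- cells had higher Cenpa, Prc1 (0.45 ± 0.08 (SE), adjusted p = 5.35e-04), Nusap1 (0.41 ± 0.09 (SE), adjusted p = 0.00254), Cdc20 (0.39), Birc5 (0.37), Kif22 (0.35), Top2a (0.32), Kif11 (0.27), Plk1 (0.26), Mcm5 (0.22), Rrm1 (0.21) and Ccne2 (0.14). Prc1 read 140.0 to 448 (median 221) in crel-/-relb-/- cells, 89.0 to 308 (median 210.5) in relb-/- cells and 112 to 383 (median 226) in WT cells, and Nusap1 93.8 to 376 (median 167) in crel-/-relb-/- cells, 74.6 to 235 (median 126) in relb-/- cells and 96.0 to 262 (median 159) in WT cells. At 0 h, Nusap1 was 376, 224 and 236 and Prc1 448, 308 and 383 in crel-/-relb-/-, relb-/- and WT cells, so crel-/-relb-/- cells already had the highest levels without stimulation. For Cdc20 the mean of its probes gave 0.20, and the calls for Mcm5, Ccne2, Rrm1 and Top2a were lost in 15, 7, 6 and 6 of 21 fits with 1 array left out. Split by time, after seeing the data, 11 members were higher and 2 lower at 0 and 1 h, where 4.74% of all genes were called higher, and 5 higher and 2 lower at 8 and 24 h, where 7.52% were. With 1 array left out these were 4 to 13 and 3 to 6 higher. The count over all conditions was 9 when crel-/-relb-/- cells given CpG for 1 h were left out. Of the other lists, 11 of 31 other G2 and mitosis genes and 5 of 26 other replication genes were higher in crel-/-relb-/- than in relb-/- cells, with 1 and 0 lower. Of all genes, 10.5% were called higher and 9.28% lower in that comparison.

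**Figure D4:**
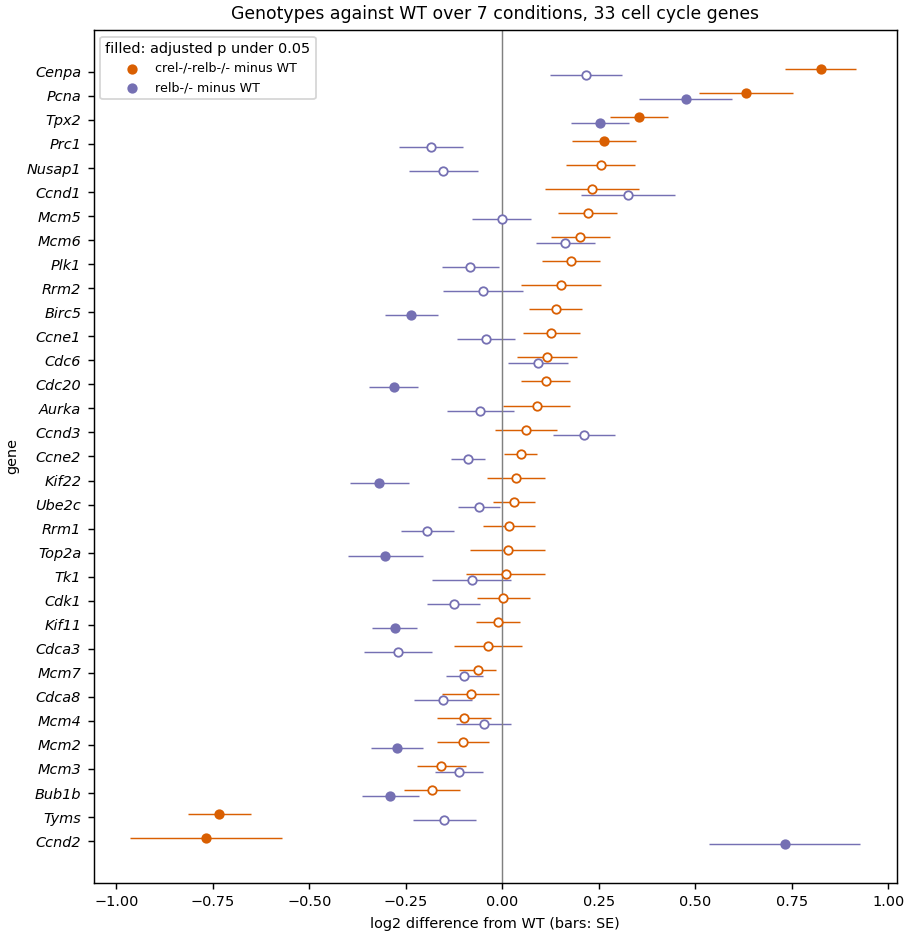
Log2 difference from WT (horizontal axis) of crel-/-relb-/- and relb-/- cells for 33 cell cycle genes (rows) over 7 conditions, from the additive limma model, with bars giving the SE and filled points an adjusted p under 0.05. Cenpa, Pcna, Tpx2 and Prc1 are filled on the right and Tyms and Ccnd2 on the left for crel-/-relb-/- cells. For relb-/- cells, Ccnd2 is filled on the right, opposite to its place in crel-/-relb-/- cells.

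Whether the late change, from 0 and 1 h to 8 and 24 h, differed between genotypes was tested with an interaction term. It was called for 1 member between crel-/-relb-/- and WT cells, Cenpa, where 0.378% of all genes were called, and for 0 members between relb-/- and WT cells, where 0.170% were, or between crel-/-relb-/- and relb-/- cells, where 0.520% were. At an unadjusted p under 0.05 there were 12, 4 and 11 members, where 9.51%, 6.97% and 10.8% of all genes were. Cenpa read 1652, 1419.6, 1883 and 1202 in the 4 late crel-/-relb-/- arrays, against 693, 717, 809 and 653 in the late WT arrays, each in the order CpG 8 and 24 h, then Pam3CSK4 8 and 24 h. At 0 h and 1 h it read 3368, 3598 and 3488 in crel-/-relb-/- cells, against 2317, 2766 and 2446 in WT cells. The late change was thus smaller in crel-/-relb-/- cells by 0.61 ± 0.12 (SE), adjusted p = 0.0387, a call lost in 13 of 21 fits with 1 array left out. Without the crel-/-relb-/- array with CpG at 24 h, which stood apart, the difference was 0.64 (adjusted p = 0.0201). Ccnd2 (values above), Rrm2 (-0.67 ± 0.15 (SE), adjusted p = 0.0655) and Tk1 (-0.63 ± 0.16 (SE), adjusted p = 0.104) had larger differences, of the opposite sign, and did not pass.

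Cell markers also differed between the genotypes. The summed intensity of 10 measured T and natural killer cell markers was 512 to 615 in crel-/-relb-/- cells, 435 to 504 in relb-/- cells and 684 to 861 in WT cells, without overlap between any 2 genotypes, with Cd4, Ncr1 and Klrb1c not bright enough to be tested. Not all of these markers moved with the sum. Against WT cells, Cd8b1 was higher in crel-/-relb-/- cells (0.39) and Klrd1 in relb-/- cells (0.34). Cd3d was lower in both (-0.88 and -1.27, in the same order). Prg2 and Ear6, granule genes of eosinophils, had higher levels in cells lacking both subunits than in WT cells by 1.07 and 1.0, and S100a8 and S100a9 by 1.5 and 1.93. Of the 10 neutrophil markers tested, 4 were higher and 1 lower in that comparison, the lower one being Lcn2 (-0.29, and -0.50 in crel-/-relb-/- against relb-/- cells). Some macrophage markers moved the same way as most of the mitotic members called. In relb-/- against WT cells, 4 of 8 were lower and 2 higher, with -1.42 for C1qb and -1.38 for C1qc, both complement genes, and -0.60 for Mrc1. In crel-/-relb-/- against relb-/- cells 6 were higher and 1 lower, with 1.32, 1.37 and 1.21 for the same 3 genes. The summed dendritic cell markers, mostly Cd74, H2-Ab1 and H2-Aa, were 14850 to 26030 in crel-/-relb-/- cells, 14730 to 19390 in relb-/- cells and 18030 to 23450 in WT cells. Irf8, a transcription factor of dendritic cells, had -0.90 in crel-/-relb-/- and -0.88 in relb-/- cells against WT. The dendritic cell list did not move together in crel-/-relb-/- against WT cells. Irf4 (-0.38) and Batf3 (-0.31) were lower as well, while Cd24a (0.49) and Itgax (0.33) were higher. The part of these cells in the genotype differences of the cell cycle genes was not tested.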

How the data were processed

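RNA of cultured bone marrow dendritic cells was measured on 21 Illumina bead arrays, after extraction with RNeasy columns and labelling as biotinylated cRNA, per the labels' protocols. The values are intensities that the authors had normalized and deposited for 25697 probes. The normalization method and the scanner software are not given in the sources used here. A second deposited table had 21 columns whose names matched no label, and it was not used. Probes were named from the platform annotation, updated through gene identifiers; 23978 had 1 symbol and 1719 were not listed.

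Intensities were put on the log2 scale with no further normalization or pseudocount. A probe was tested where its 3rd highest value lay above 47.3, and the brightest such probe stood for its gene, leaving 10587 of 16593 genes. The main model, fitted with limma 3.58.1 in R 4.3.3 (lmFit, eBayes with an intensity trend), had genotype and condition as additive terms and 12 residual degrees of freedom. A second model, with 10, added a genotype effect at 8 and 24 h. Tests were two-sided, with Benjamini-Hochberg adjustment over all genes tested. The scripts were tested on simulated data. Precision is limited by how many arrays there were.

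The 42 genes and the other lists were chosen with earlier results of these data known. All 42 were to be described, with the 3 largest called differences in each direction given with their levels, and at most 3 genes in each direction from the other lists. The comparisons by agent at each time and of early and late arrays were added after seeing the data, and alternatives to the background, offset, filter, probe and variance model were tried.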

Additional observations from a re-analysis of the deposited data

Results flagged for a closer look

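Differences between groups in the response of a gene passed the test for 4 members. The difference of CpG minus Pam3CSK4 was larger at 24 h than at 1 h for Prc1 by 1.06 on the log2 scale (adjusted p = 0.00906, limma), for Mcm4 by 0.70 (adjusted p = 0.0397) and for Cdc20 by 0.61 (adjusted p = 0.0452), in comparisons added after seeing the data. Without the crel-/-relb-/- array with CpG at 24 h the values were 1.22 for Prc1 (adjusted p = 0.00084), 0.75 for Mcm4 (adjusted p = 0.0357) and 0.56 for Cdc20 (adjusted p = 0.0854). The late change of Cenpa was a smaller fall in crel-/-relb-/- than in WT cells, with a difference of 0.61 (adjusted p = 0.0387, limma), and of 0.64 (adjusted p = 0.0201) without the same array.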

How the results depend on the processing

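Of 93 pairs of a member and a comparison that were called, 65 were called under every alternative and with every array left out in turn, and 0 changed direction. Leaving out an array in turn gave 6 to 11 members called for relb-/- against WT, 5 to 7 for crel-/-relb-/- against WT, 9 to 15 for crel-/-relb-/- against relb-/-, 0 to 1 at 1 h, 20 to 23 at 8 h, 20 to 25 at 24 h, 3 to 7 for 24 h against 8 h and 5 to 11 for CpG against Pam3CSK4. For the difference in late response it gave 0 to 2 between crel-/-relb-/- and WT and 0 to 1 between crel-/-relb-/- and relb-/-. At 1 h, 2 members were called with array weights and 1 without the array that stood apart. At 8 h, a stricter filter left 20 members tested, of which 14 were called. For CpG against Pam3CSK4, background correction by normexp with quantile normalization gave 7 calls, and the cause was not tested. The difference in late response between crel-/-relb-/- and relb-/- cells had 1 call with cyclic loess, without the intensity trend, with array weights, or without the array that stood apart. The level of the group, highest minus lowest array, was 0.93 on the log2 scale, 0.82 with normexp, 0.81 with 16 added to each intensity, 0.84 with no filter, 1.16 with the stricter filter and 0.86 with the mean of all passing probes. Dim members lie close to background, which limits how far they can be seen to fall. Arrays could not be paired by animal or culture, which the labels do not give. Genotypes were compared within conditions, since condition was a term of the model.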
